A study of Mus musculus with 3 samples.

Results

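The regions described here are Tet2 cross-linking peaks that lie deep inside longer protein-coding genes of mouse mast cells, far from either end of the transcribed span. A deposited peak was a member when its midpoint fell in exactly 1 RefSeq gene span, when that span was protein-coding and 10000 nt or longer, and when the midpoint lay between 25% and 75% of the span. Position alone chose the members, so heights, widths and recurrence between libraries were free to vary. Of the 8196 deposited peaks, 1607 (19.6%) met the rule, with 609 in replicate 1, 541 in replicate 2 and 457 in replicate 3. They are called deep peaks. A further 127 peaks lay at such a position in a longer coding gene but inside more than 1 gene span, and were not members.

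The study mapped RNA sites cross-linked to the endogenous Tet2 protein in mast cells grown from the bone marrow of C57BL/6 animals, with 3 libraries described as biological replicates of 1 group. Marrow cells from femurs were grown for 4 to 6 weeks with 10 ng/ml interleukin 3 and 5 ng/ml stem cell factor, stained for the high-affinity IgE receptor and c-Kit, and used when their purity was above 97.5%. Cells were irradiated with ultraviolet light at 400 and then 200 mJ per square cm, RNA was trimmed with RNase I, and complexes were recovered with an antibody against Tet2. No input, control antibody or Tet2-deficient library was analysed here, so a peak was not set against the abundance of its RNA.

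Cross-linking and immunoprecipitation (CLIP) freezes contacts between a protein and RNA with ultraviolet light, so that short RNA fragments held by the protein can be sequenced and piled into peaks. Tet2 is known as an enzyme that oxidises methylated cytosine, with roles in DNA demethylation and in blood cell differentiation, and it has also been reported to act on RNA. Mast cells are granule-filled immune cells that depend on Kit and interleukin 3 signalling and on the transcription factor Gata2. Within a longer coding gene, the 5′ part holds the promoter and first exon, the 3′ part usually holds the untranslated tail, and the middle is a mixture of introns and internal exons. Some genes also start a shorter transcript from a promoter in the middle. Exon positions were not used here, so a deep peak was not assigned to an exon or an intron.

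Sequence could be read for deep peaks that fell in the RefSeq windows around annotated transcription starts (build GRCm38.p6, 250 bases before to 50 after each start). Of the deep peaks, 10 in 7 genes lay wholly in such a window, and 6 of them in a window of their own gene. The sequences before the internal start are shown for the 4 genes where such a peak covers bases upstream of a start of the same gene. Sun1, whose replicate 3 peak of 4 units begins at its start, is not shown. All are on the plus strand, written 5′ to 3′, and capitals mark the bases under the peak. The Gata2 window is chr6:88198414-88198663, before the start at 88198664, and holds both replicate 1 peaks of 5 units each. The Cnot8 sequence is chr11:58103812-58103892 with a replicate 2 peak of 3 units, the Slc6a9 sequence is chr4:117849283-117849349 with the upstream part of a replicate 2 peak of 4 units, and the Arap1 sequence is chr7:101394214-101394258 with a replicate 2 peak of 6 units.
Gata2: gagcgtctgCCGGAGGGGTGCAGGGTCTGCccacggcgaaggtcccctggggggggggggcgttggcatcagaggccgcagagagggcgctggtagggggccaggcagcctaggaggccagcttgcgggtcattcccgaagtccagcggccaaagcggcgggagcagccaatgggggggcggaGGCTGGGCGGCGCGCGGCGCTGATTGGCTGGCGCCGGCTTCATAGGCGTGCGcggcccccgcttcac
Cnot8: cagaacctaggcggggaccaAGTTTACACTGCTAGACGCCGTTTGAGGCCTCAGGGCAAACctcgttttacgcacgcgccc
Slc6a9: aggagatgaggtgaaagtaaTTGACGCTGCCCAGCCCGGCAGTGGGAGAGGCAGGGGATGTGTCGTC
Arap1: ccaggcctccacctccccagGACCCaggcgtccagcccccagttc

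The dinucleotide CG, which reads the same on both strands, was counted in each whole start window. The Gata2 window held 29, and 12.9% of the 32851 RefSeq start windows held as many or more. The Cnot8 window held 30 (11.7% of windows held as many), the Slc6a9 window 14 (36.3%) and the Arap1 window 4 (68.6%), against a median of 7 over all windows. The windows under deep peaks thus ranged from CG-poor to CG-rich, which describes these 4 sequences only.

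Across all oriented deep peaks, 84 of 1336 (6.29%) lay within 500 nt of an annotated start of their own gene. The share was 5.61%, 6.87% and 6.48% in the 3 libraries, and the deep windows of these peaks' genes, averaged over the peaks so that each gene counts as often as it holds one, lie that close to a start over 1.70% of their length (0.498% when the windows of the 658 genes are pooled by length, which long genes dominate). The difference was not tested. The peaks near a start fell in 50 genes. Gata2 held 5 of them in all 3 libraries, Arap1 4 and Dgkz, a diacylglycerol kinase gene, 4. Gnas, the gene of the stimulatory G protein alpha subunit with several known promoters, held 3, the tallest of 18 units. Dgkz and Gnas were named after their values were seen. Runx1, a blood transcription factor with a known internal promoter, held 2. These peaks were of ordinary height, with a median of 4 units. Averaged over these peaks, 32.1% of the other libraries held an overlapping peak.

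Deep peaks made up a steady share of each library. Among the 5399 peaks in single coding spans of 10000 nt or longer, the deep share was 31.1%, 28.9% and 29.2% in replicates 1 to 3, or 29.7% ± 1.19 (SD, n = 3). End peaks, within 5% of either end of the span, took 37.9% ± 1.32 and the flanks in between took 32.4% ± 0.503. The median distance of a deep peak from the nearer end of its span was 14565 nt, with a range of 2758 to 880795 nt. Recurrence is the share of the other libraries with an overlapping peak, averaged over peaks. Just inside the lower border of the rule, 48 peaks between 25% and 27% of the span had a median height of 4 units, a median width of 44.5 nt and a recurrence in another library of 22.9%, beside 4 units, 49 nt and 37.0% for the 73 peaks between 23% and 25%. Just inside the upper border, 99 peaks had medians of 4 units and 58 nt and a recurrence of 29.8%, beside 3 units, 47 nt and 40.2% for the 82 just outside.

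The deep peaks fell in 805 genes, which is 5.77% of the 13962 coding genes of that length. Of these genes, 545 held a deep peak in 1 library, 143 in 2 and 117 in all 3, the last being 0.838% of the genes that could have done so. Exactly 1 deep peak, counted over all 3 libraries, was found in 497 genes. Among peaks in a single gene span, every peak was deep in 437 genes, and 228 genes (28.3%) also had a peak at an end. Host spans had a median length of 42620 nt, against 33120.5 nt for all coding genes of 10000 nt or longer. The share of genes with a deep peak was 4.79% for spans of 10000 to 20000 nt, 4.93% for 20000 to 50000, 6.48% for 50000 to 100000 and 8.36% above. Per megabase of deep window and library, the number of deep peaks went the other way, from 4.38 in the shortest class through 2.25 and 1.23 to 0.385 in the longest.

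The strand of the host gene was known for 1336 of the deep peaks, in 658 genes. Read from 5′ to 3′, peaks were dense at the first 5% of the span (1307 peaks, 29.5% ± 1.14 of oriented peaks), sparse through the middle and less dense at the last 5% (347 peaks, 7.78% ± 0.663). Within the deep window the number rose towards the 3′ side, from 111 peaks at 25% to 30% and 94 at 30% to 35% to 158 at 65% to 70% and 173 at 70% to 75%. The 3′ side of the window's midpoint held 56.7%, 55.7% and 54.9% of the oriented deep peaks in replicates 1 to 3, above the 5′ side in 3 of 3 libraries. The difference between the sides was 11.5 percentage points ± 1.80 (SD, n = 3, exact permutation test over libraries, two-sided, p = 0.25, the smallest p that 3 libraries allow). The tall peaks did not follow that order. Peaks of 10 units or more made up 14.8% of the deep peaks at 55% to 65% of the span, 3.32% at 65% to 75% and 9.76% at 25% to 35%. Col5a1, described below, holds several tall sites in the first of these intervals.

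**Figure D1:**
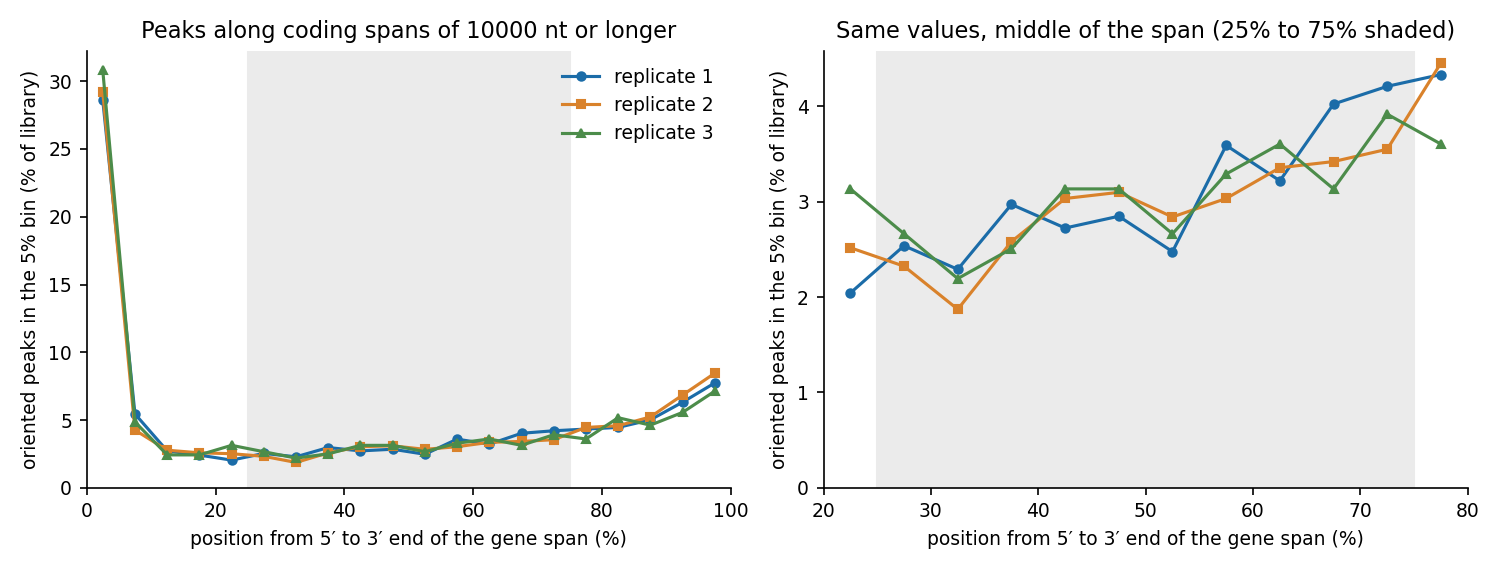
Share of each library's oriented peaks (y axis, percent) in 5% bins of the gene span from 5′ to 3′ (x axis, percent) for coding spans of 10000 nt or longer, with the whole span on the left and the middle on a larger scale on the right. Lines are the 3 replicates and the shaded area is the deep window, where the mean share goes from 2.51% in its first bin to 3.89% in its last.

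Heights are in units, the smallest step between the deposited heights of a library, and a unit was not taken to be a read. The unit differs between libraries, as 1/19213, 1/18270 and 1/15431 of the summed height in replicates 1 to 3. Units therefore do not rank the deposited heights of different libraries. The deep peaks had a median of 4 units in each library and a maximum of 131, 126 and 133 units in replicates 1 to 3. Heights of 3 or 4 units, the lowest heights among deep peaks, made up 67.7% ± 1.10 of them. Heights of 10 units or more were found at 44, 47 and 41 deep peaks. Together the deep peaks carried 16.8% ± 0.577 of the summed height of a library (SD, n = 3). Widths had medians of 54, 55 and 56 nt, with a range of 1 to 144 nt. Taller peaks were narrower: the median width was 63 nt at 3 or 4 units, 45 nt at 5 to 9 units, 23 nt at 10 or more and 11 nt for the 16 peaks of 40 or more. Peak borders were set by a search for valleys on either side of a summit, so width and height come from the same profile.

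Heights and widths of deep peaks and of end peaks in the same class of genes differed little. The mean log2 height was 2.12, 2.13 and 2.10 for deep peaks and 2.16, 2.18 and 2.10 for end peaks in replicates 1 to 3. The deep minus end difference was −0.03 ± 0.0234 on the log2 scale (SD, n = 3, exact permutation test, two-sided, p = 0.25, the smallest possible). With peaks under 5 units left out the difference was 0.08, in the other direction. Median widths differed by −1, 1 and 0 nt (exact permutation test, two-sided, p = 1).

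Deep peaks had a lower recurrence than end peaks. Recurrence was the share of the 2 other libraries with a peak that overlapped by at least 1 nt, averaged over peaks. No overlap with another library was found for 65.4%, 59.7% and 58.0% of deep peaks in replicates 1 to 3. Recurrence was 26.4%, 30.6% and 33.4% for deep peaks in replicates 1 to 3 and 34.8%, 36.5% and 40.4% for end peaks. The shares were lower for deep peaks in 3 of 3 libraries, by −7.11 percentage points ± 1.20 in the mean (SD, n = 3, exact permutation test, two-sided, p = 0.25, the smallest possible). An overlap between 2 libraries counts in both, so the values of the 3 libraries are not independent. This holds for every recurrence difference below. With peaks under 5 units left out of every library the difference was 2.36 percentage points, with deep peaks higher. It was −4.70 for an overlap of at least 50% of both peaks and −1.84 as the mean over the height classes that follow. Among peaks of 3 or 4 units, recurrence was 18.1% ± 2.22 for deep and 25.4% ± 2.21 for end peaks. Among peaks of 5 to 9 units the shares were 45.9% ± 6.87 and 53.7% ± 9.33. At 10 units or more the order turned, with 82.8% ± 4.62 for deep and 73.3% ± 2.76 for end peaks. The differences of −7.26, −7.70 and 9.44 percentage points each kept 1 sign in 3 of 3 libraries and each had an exact permutation p of 0.25; the change between classes was not itself tested. The difference at 10 units or more varied with the rule, from 0.515 percentage points ± 7.21 for an overlap of at least 50% of both peaks to 17.7 ± 11.7 for spans of 50000 nt or longer. It was 3.29 ± 4.60 for midpoints within 200 nt and 4.66 ± 18.8 without peaks of 20 units or more.

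The ends themselves were not alike. The first 5% of the span had a recurrence of 39.6% ± 2.34, oriented deep peaks 31.7% ± 3.20 and the last 5% 25.6% ± 4.03 (SD, n = 3). Deep peaks were below the 5′ end by −7.94 percentage points and above the 3′ end by 6.13, each in 3 of 3 libraries and each with an exact permutation p of 0.25. Against the flanks the deep peaks differed by −1.85 percentage points ± 1.09 (exact permutation p = 0.25).

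**Figure D2:**
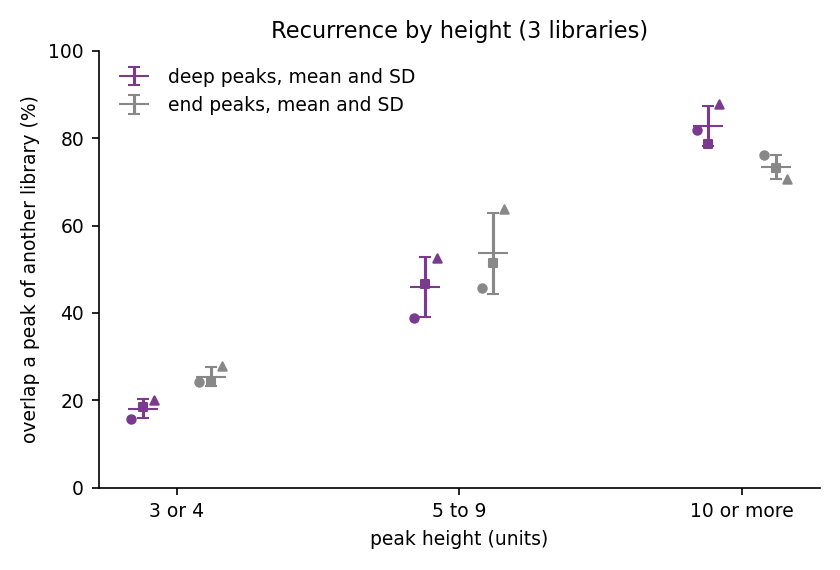
Recurrence (y axis, percent) of deep and end peaks in 3 classes of height (x axis, units). It is the share of the other libraries with an overlapping peak, averaged over peaks. Points are the replicates (circle 1, square 2, triangle 3), bars the mean and SD of 3 libraries, and deep peaks lie below end peaks in the lower classes and above them at 10 units or more.

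Joined where they overlapped, the deep peaks formed 1238 sites. Overlaps were chained, so peaks of 2 libraries could share a site through a peak of the other library without overlapping each other. That was so at the tallest common sites of Atf2, Gata2, Csf2rb2, Csf2rb and Slc3a2. Of these, 986 (79.6%) were seen in 1 library, 135 (10.9%) in 2 and 117 (9.45%) in all 3. The 117 common sites lay in 87 genes, held 351 of the deep peaks (21.8%) and carried 37.7% of the summed deep height. Their median height, averaged over libraries, was 6.33 units. Start and end were identical in all 3 libraries at 11 sites, and 24 sites in 18 genes reached 10 units or more in each library. In 30 of the 117 genes with a deep peak in every library, no site was common to all 3. Across matched deep peaks, log2 heights had Pearson r of 0.81 between replicates 1 and 2 (n = 174 peaks), 0.78 between 1 and 3 (n = 148) and 0.81 between 2 and 3 (n = 157). Spearman rho was 0.67, 0.64 and 0.69. These are descriptions across peaks, which share a library and the same floor of 3 units.

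The tallest deep peak was in Jarid2, whose protein is an accessory subunit of the Polycomb repressive complex that methylates histone H3. It had 131, 126 and 133 units in replicates 1 to 3, all within chr13:44869620-44869631 at 72.7% of the span, and was 6, 3 and 1 nt wide. The replicate 3 peak lay beside the other 2 without overlapping them, so this site was not counted as common. Cdk8, the kinase of the Mediator complex, had 86, 89 and 89 units within chr5:146261071-146261075, at 42.0% of the span, in peaks of 2, 1 and 4 nt. In both genes the peak was the only deep one in each library except for 1 further Jarid2 peak of 3 units in replicate 2. How many distinct reads stand behind these narrow, tall peaks cannot be read from the deposited values.

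Col5a1, which encodes a chain of the fibrillar type V collagen, had 7, 5 and 6 deep peaks. Its site at chr2:27980502-27980516 had 59, 47 and 47 units, and the site at chr2:27981037-27981060 had 55, 46 and 44. The site at chr2:27985049-27985062 had 47, 35 and 32 units, and the site at chr2:27975595-27975608 had 33, 24 and 30. Each of these 4 sites was 24 nt or narrower and lay between 58.3% and 64.4% of the span. The gene also had 15 flank peaks and no end peak, so its sites stood in the body of the span. Flank peaks at 79.3% of the span had 53, 70 and 58 units in replicates 1 to 3. In replicates 2 and 3 these were taller than any deep peak of the gene. The genes with the 12 highest deep peaks together carried 24.3% ± 2.46 of the deep height, with 28, 28 and 27 peaks per library (SD, n = 3).

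Below them stood genes whose tallest site was common to all libraries. Il1rapl1, an X-linked member of the interleukin 1 receptor family known from synapses, had 29, 25 and 27 units in a span of 1375012 nt. It had no other peak in its span alone. Leng8 had 25, 23 and 21 units, Atf2, a stress-responsive transcription factor, 19, 25 and 22, and Arl6ip6 23, 19 and 21. Gphn, which encodes gephyrin, a scaffold of inhibitory synapses and an enzyme of molybdenum cofactor synthesis, had 17, 17 and 21 units at 28.6% of a span of 467448 nt. Arhgap21, a GTPase-activating protein, had 16, 14 and 24 units.

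Further sites of 10 units or more in each library were found in genes of translation, chromatin, transport and immunity. Eif4g1, the scaffold of the translation initiation complex, had 18, 13 and 13 units, and Ss18, a subunit of the BAF chromatin remodeller, had 15, 14 and 11. Nlrc5, the transactivator of MHC class I genes, had 16, 15 and 13 units, and Plxnb2, a semaphorin receptor, 18, 11 and 13. Cebpg, a basic leucine zipper factor in the shortest span of the set (10145 nt), had 12, 15 and 13 units, and Slc3a2, the heavy chain of amino acid transporters, 14, 11 and 10. Among peaks in a single gene span, Nlrc5, Plxnb2, Cebpg and Slc3a2 held none outside the deep window.

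**Figure D3:**
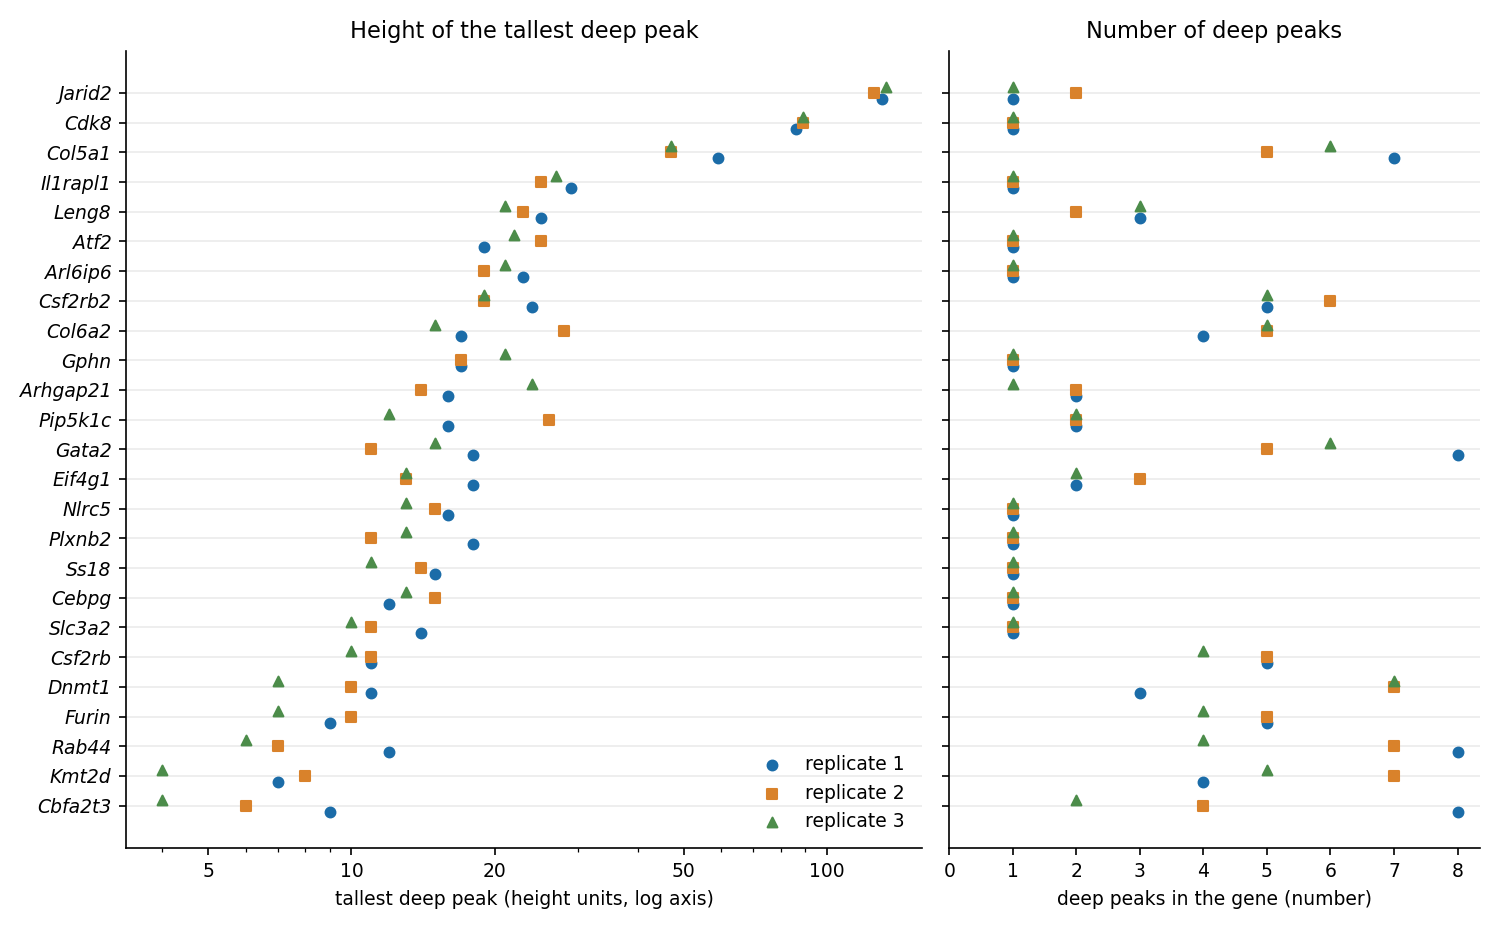
Height of the tallest deep peak (left, units, log axis) and number of deep peaks (right) in each of the 3 replicates, for genes with the tallest deep peaks, with the most deep peaks or with a site of 10 units or more in all libraries. Jarid2 at 126 to 133 units and Cdk8 at 86 to 89 have few peaks, while Gata2 and Rab44 reach 8 peaks in replicate 1 at lower heights.

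Several genes with many deep peaks are mast cell genes. Gata2, the transcription factor that maintains mast cell identity, had 19 deep peaks, 8, 5 and 6 per library, in a span of 13142 nt. Its tallest common site, chr6:88200667-88200713, had 18, 10 and 15 units, and the site at chr6:88199519-88199552 had 6, 11 and 12. The library order thus differed between 2 sites of the same gene. The peaks of the start window printed above had 5 units in replicate 1. Replicate 3 had a 5-unit peak and replicate 2 a 4-unit peak upstream of them, in the start window of the minus-strand gene Gm38708. The replicate 1 peak at chr6:88198423-88198443 lay in that window too. No peak in these windows overlapped across libraries. The deposited peaks carry no strand, so peaks here were placed on Gata2 by position alone.

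Csf2rb2 and Csf2rb encode the beta chains of the interleukin 3 receptor, on which these cultures depended. Csf2rb2 had 5, 6 and 5 deep peaks, with 24, 17 and 19 units at chr15:78293058-78293085 and 16, 19 and 11 at chr15:78294281-78294362. Csf2rb had 5, 5 and 4 deep peaks, with 11, 11 and 9 units at chr15:78340771-78340842. The genes are close paralogs, so reads in shared sequence could have been placed in either. Rab44, a large Rab GTPase with a role in mast cell granule release, had 8, 7 and 4 deep peaks and a tallest peak of 12, 7 and 6 units. Most of its peaks were low, and its only site common to all libraries had 4, 3 and 3 units at chr17:29135179-29135266. Kit, the stem cell factor receptor, had deep peaks in replicates 1 and 2 only, the tallest with 4 and 5 units at different sites. Its shared site chr5:75603825-75603917 had 3 units in replicate 1 and 5 in replicate 2.

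Genes of chromatin and DNA methylation were also spread with low peaks. Dnmt1, the maintenance DNA methyltransferase, had 3, 7 and 7 deep peaks, with 11, 8 and 5 units at chr9:20927147-20927171 and 5, 5 and 4 units at chr9:20932793-20932870. Tet3, a relative of Tet2, had a single common site at chr6:83404613-83404716 with 4, 5 and 5 units. Tet2 itself had no deep peak. Kmt2d, a histone H3 lysine methyltransferase, had 4, 7 and 5 deep peaks and a common site of 7, 8 and 4 units at chr15:98861603-98861676. Gse1, a corepressor subunit, had 4, 3 and 1 deep peaks in a span of 352883 nt, with 9, 8 and 5 units at chr8:120413284-120413379. Cbfa2t3, a corepressor of the ETO family, had 8, 4 and 2 deep peaks, the tallest of 9, 6 and 4 units, and none of its 12 sites was seen in all libraries. Runx1 had 1, 2 and 1 deep peaks, with 11 units at a replicate 2 peak that no other library shared.

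Other genes with many deep peaks were Col6a2, a chain of type VI collagen, and Furin, a protease that matures secreted precursors. Col6a2 had 4, 5 and 5 deep peaks and no other peak in its span alone. It had 17, 28 and 14 units at chr10:76611830-76611836 and 16, 28 and 15 at chr10:76611948-76611986. In units, replicate 2 was the highest at its 4 common sites. Furin had 5, 5 and 4 deep peaks and a common site of 9, 10 and 7 units at chr7:80398756-80398831. At the low end of the common sites, Ctnnd2, the gene of delta catenin, had 3 units in every library at the same 20 bases in a span of 856811 nt. Igf1r, the receptor of insulin-like growth factor 1, had 5, 4 and 3 units in a span of 281412 nt. Zc3h7a, whose 2-nt peak reached 139, 133 and 127 units, was not a member because the peak lay at 18.9% of its span.

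**Figure D4:**
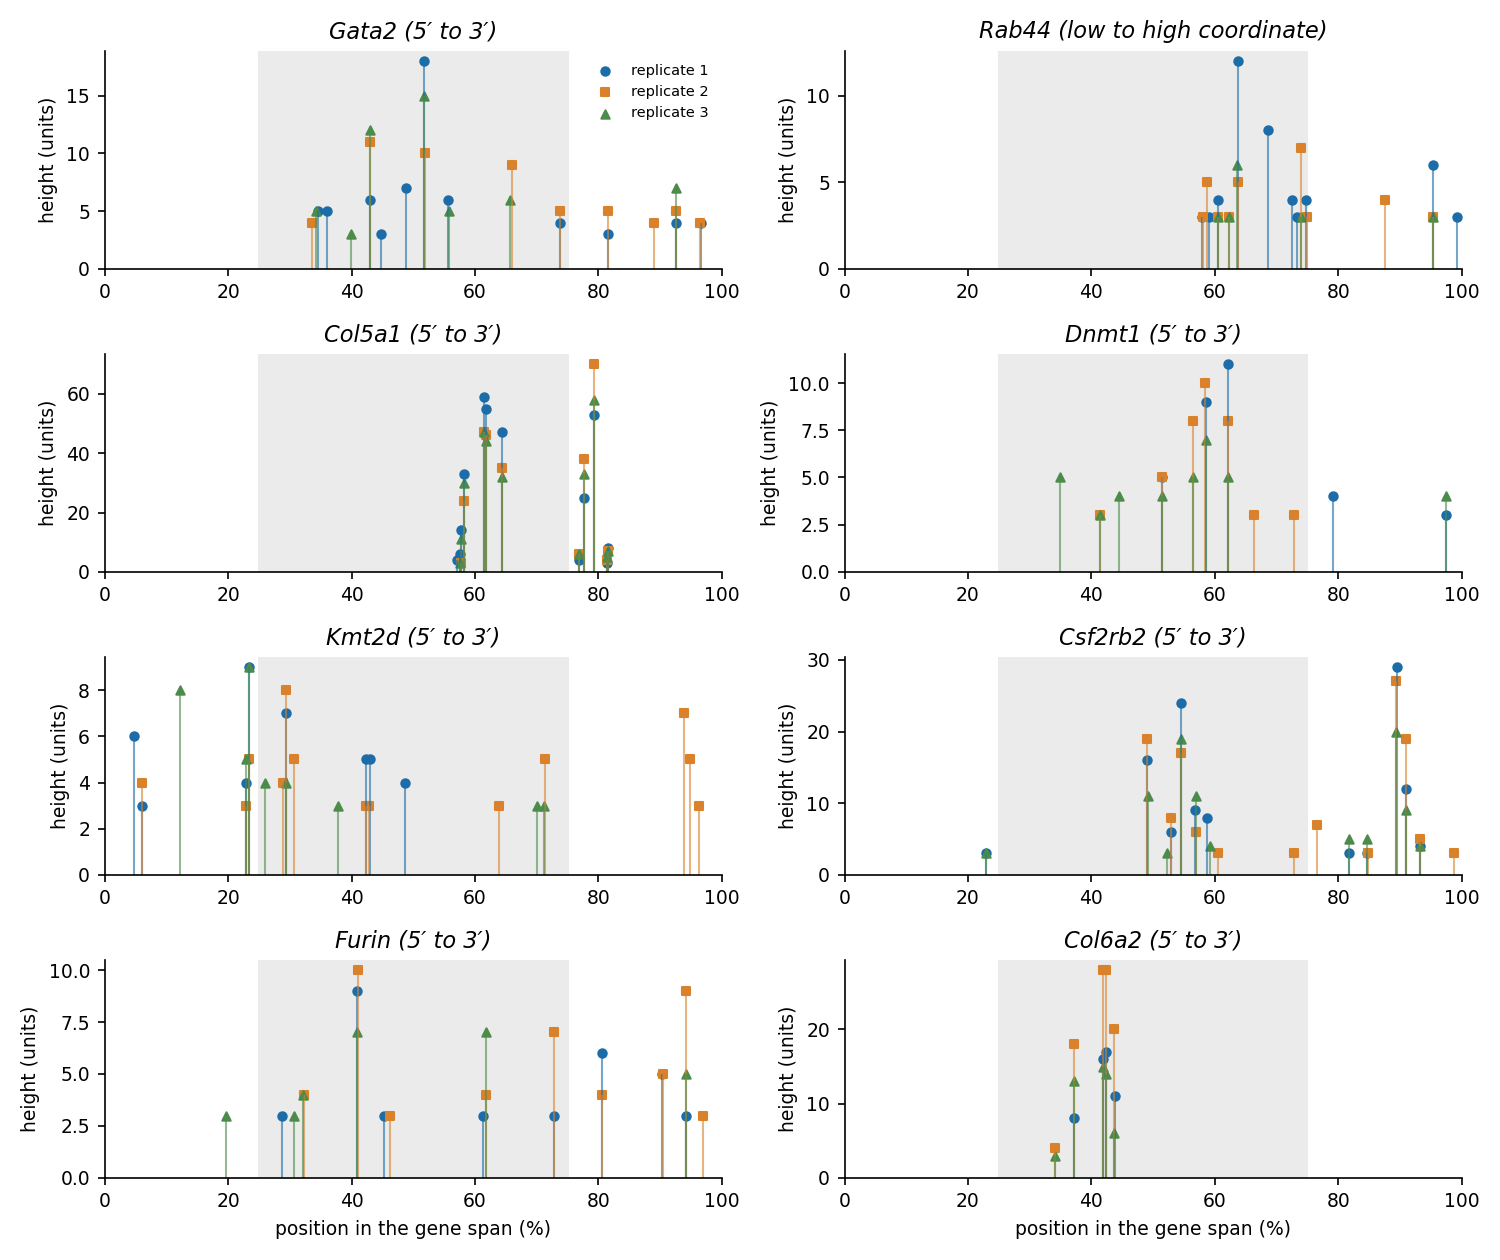
Height (y axis, units) of every peak along the gene span (x axis, percent) in 8 genes with many deep peaks, with stems coloured by replicate and the deep window shaded. Spans run 5′ to 3′ except Rab44, drawn from low to high coordinate, and the peaks of Col5a1 and Col6a2 cluster in part of the window while those of Gata2 and Kmt2d are spread through it.

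The gene lists describe what else the deep peaks touched. They were drawn up with earlier results of these data known, and several hold genes longer than the median of 33120.5 nt, so their counts are set beside the background and read no further. Over all coding genes of 10000 nt or longer, 5.77% had a deep peak and 0.838% had one in all 3 libraries. Of the mast cell identity genes of that length, 8 of 17 (47.1%) had a deep peak and 4 in all libraries: Gata2, Csf2rb2, Csf2rb and Il1rl1, the interleukin 33 receptor, with 3 units in each. Slc18a2, which loads histamine into granules, had none, 7 and 3 units. Among genes of IgE receptor and Kit signalling it was 10 of 39 (25.6%) and 0 in all libraries. Among these, the transcription factor Nfatc2 had 8 and 6 units and none in replicate 3, and the kinase Prkca had 9, 5 and none. Nfatc1 had none, 3 and 5 units. Of the JAK-STAT and cytokine receptor genes, 2 of 29 (6.90%) had a deep peak, near the background share: the interleukin 4 receptor gene Il4ra had 7, 9 and 6 units and Stat5a a single peak of 3.

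Haematopoietic transcription factors had deep peaks in 6 of 32 genes (18.8%), 4 of them in all libraries. Chromatin regulators had them in 13 of 48 (27.1%), 6 in all libraries, and the TET and DNA methyltransferase genes in 2 of 8 (25%), both in all libraries. Splicing factors and RNA-binding proteins had 9 of 36 (25%), 2 in all libraries. There, Ago2, the slicing Argonaute, had 4, 8 and 7 units, and Son, a nuclear speckle protein, 3, 4 and 8. Srrm2, another speckle protein, had 5 units in replicates 1 and 3 and none in replicate 2. Regulators of small GTPases and trafficking had 11 of 38 (28.9%), 3 in all libraries, led by Arap1 and Furin, and Unc13d, which primes granules for release, had 11, 0 and 4 units. Cytoskeleton and adhesion genes had 8 of 34 (23.5%), 2 in all libraries. Plec, the cross-linker plectin, had 5, 3 and 5 units, Myh9, non-muscle myosin, 3, 4 and 4, and Vcl, vinculin, 6, 3 and none. Ubiquitin ligases had 6 of 24 (25%) and 0 in all libraries, where Ube3b had none, 3 and 3 units and Trip12 4 units in replicate 3 only.

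Collagen and matrix genes had deep peaks in 6 of 17 (35.3%), 3 of them in all libraries: Col5a1, Col6a2 and Col1a2. Collagens are not typical products of mast cells, so the stromal markers are given beside them. Of the fibroblast and stromal markers, 2 of 13 (15.4%) had a deep peak, Col1a2 with 4, 3 and 5 units and Col3a1 with 4 units in replicate 2 only, and both are collagens; 5 of the 13 had a peak anywhere. The part of stromal cells in these peaks was not tested. Of the macrophage markers 1 of 12 (8.33%) had a deep peak, Adgre1 with 3 units in replicate 2. Of the erythroid and megakaryocyte markers 2 of 8 (25%) did, Itga2b with 4, 3 and 4 units and Itgb3 with 3 units in replicate 2. No neutrophil marker (0 of 5) and no lymphocyte marker (0 of 11) had a peak. Of the 13 genes used to check the mast cell label, 8 had a peak of any kind and 5 a deep one, namely Kit, Slc18a2, Gata2, Mitf and Il1rl1. Fcer1a, Ms4a2, Mcpt4, Tpsab1 and Mcpt8, the last better known from basophils, had none, and all 5 have spans under 10000 nt. A gene without a peak may still be expressed, since peak lists carry no RNA level.

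Some deep peaks came as pairs with a fixed spacing. Of 425 adjacent pairs of deep peaks in the same gene and library, counted over the libraries, 6 pairs of sites kept identical inner borders in all 3 libraries, with gaps of 138 to 661 nt. In Pip5k1c, a lipid kinase gene, the peaks 470 nt apart had 16, 26 and 12 units on the left and the same 16, 26 and 12 on the right. In Arap1, which acts on small GTPases, the peaks 532 nt apart had 14, 8 and 5 units on both sides. In Ehmt1, a histone H3 lysine methyltransferase gene, the gap was 661 nt and both peaks had 8, 6 and 5 units. Lig1, a DNA ligase, had 5, 6 and 5 units on both sides of 211 nt, and Col1a2 had 4, 3 and 4 on both sides of 272 nt. Plekhg2, a guanine nucleotide exchange factor, was the exception, with 6, 5 and 4 units on the left and 5, 6 and 4 on the right of 138 nt. Heights were thus equal in every library in 5 of the 6 pairs, although they changed between libraries. Equal heights were not limited to these pairs, above all among low peaks. Among the other pairs under 2000 nt apart, heights were equal in 35.9% of 170 when the lower peak had 3 or 4 units, in 13.6% of 59 at 5 to 9 units and in 2 of 20 at 10 or more. Among pairs farther apart these were 42.4% of 132, 4 of 20 and 0 of 6. Ehmt1, Lig1 and Plekhg2, and the pattern itself, were chosen after the values were seen. Whether single reads cover both peaks of a pair was not tested.

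**Figure D5:**
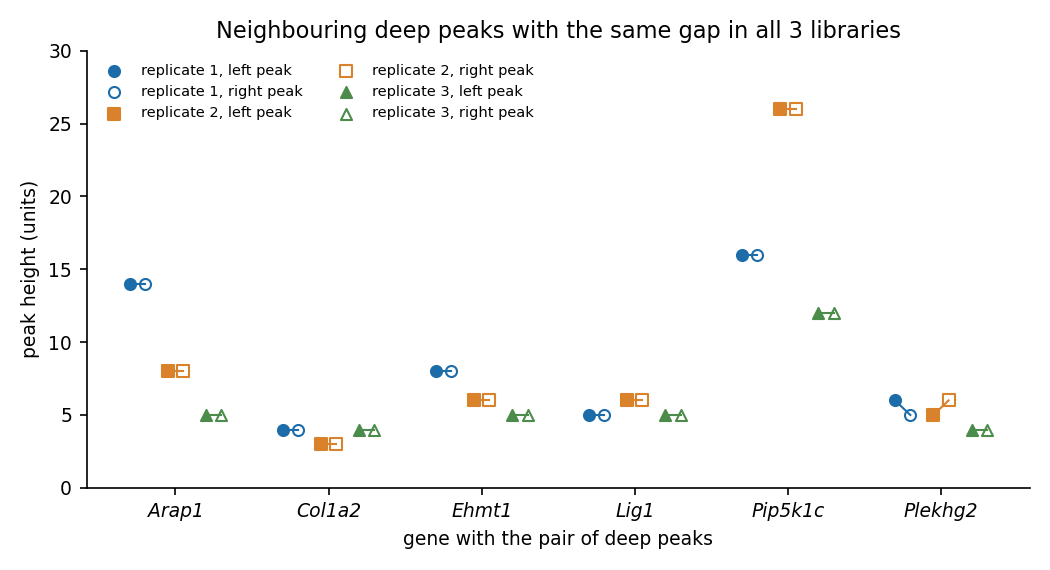
Heights (y axis, units) of the left peak (filled) and the right peak (open) in the 6 genes whose neighbouring deep peaks keep the same gap in all libraries (x axis), with colours and shapes for the 3 replicates. The joining line is level where both heights are equal, which holds in every replicate except Plekhg2 in replicates 1 and 2.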

How the data were processed

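Reads were trimmed with cutadapt 1.9 and aligned with STAR 2.4.0i to mm10, tools and build that the submitters' processing notes name without order. Per the labels' protocols, peaks were called where valleys flank a summit. The authors deposited, per library, peak positions and a height, a signal that sums to 1 over a library. Heights were whole multiples of 1/19213, 1/18270 and 1/15431 in replicates 1 to 3 (100% of values within 0.05 of a step), and this step is the unit used. Sequencing depth, and hence counting error, is unknown. Starts were read as counting from 0 and are printed from 1.

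Peaks were placed by midpoint on RefSeq GRCm38.p6 gene spans (13962 coding spans of 10000 nt or longer). A peak in more than 1 span was given to no gene, so the peaks of a gene leave such peaks out. Strand came from the start-window table, which lacks some genes. Differences were taken within each library and tested by exact sign-flip permutation over 3 libraries (smallest p 0.25), with Python 3.11.15, pandas 2.3.3, NumPy 2.4.6, SciPy 1.17.1 and Matplotlib 3.10.9. The code was tested on simulated peaks. Named genes were the 12 with the tallest deep peak, the 10 with most deep peaks, those with a site of 10 units in all libraries, the 5 longest spans with a common site, up to 3 per list and 7 fixed names. Some of these are not reported here. Members, lists and tests were chosen with earlier results of these data known. Alternatives changed the window, minimum span, height minimum, overlap rule and libraries.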

Additional observations from a re-analysis of the deposited data

How the results depend on the processing

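The deep share of 29.7% became 17.8% with a window of 35% to 65% of the span and 50.6% with 10% to 90%, was 28.4% for spans of 50000 nt or longer and 27.9% for peaks of 5 units or more. The 805 genes became 506, 1218, 366 and 254 under the same 4 changes. The log2 height difference of −0.03 between deep and end peaks turned to 0.00237 (35% to 65%), 0.0131 (spans of 50000 nt or longer) and 0.0819 (5 units or more), and the recurrence difference of −7.11 percentage points turned to 2.36 at 5 units or more. The share on the 3′ side of the window, a result added after the data were seen, was 51.9%, 59.3%, 53.5% and 57.4% under the same 4 changes. Leaving out each library in turn gave deep shares of 29.0% to 30.1%, 579 to 661 genes, log2 height differences of −0.0419 to −0.0188, width differences of −0.5 to 0.5 nt, recurrence differences of −7.71 to −6.49 and 5.59 to 11.7 at 10 units or more (also added later), and 3′ shares of 55.3% to 56.2%. Leaving out Col5a1, an alternative chosen after its values were seen, turned no direction and gave a height difference of −0.0551 and a recurrence difference of −7.78. Of 190 alternative values for the tallest peak of named genes, 161 stayed within the spread of the libraries and 29, in 18 of 19 genes, did not. The median width difference of 0 nt had no direction to keep and was −5.83 ± 6.29 nt at 5 units or more. All zone differences were paired within a library; with 1 group there are no samples to pair across groups. The lowest deep peaks have 3 units, and an absent peak near that height does not show an absent site.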
